A study of Bos taurus with 6 samples.

Results

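The genes described are 9 of the 23704 genes to which transcripts of bovine primordial follicles (PMF) could be assigned: the matrix metallopeptidases MMP1, MMP2, MMP3, MMP9, MMP13 and MMP14, and the tissue inhibitors of metallopeptidases TIMP1, TIMP2 and TIMP3. They were chosen by their place in one enzyme and inhibitor family, after the TPM and fold changes of MMP1 and MMP3 between cultured and freshly collected follicles were known. The values of all 9 in that comparison are therefore a description, without a test. Each is covered by 1 RefSeq transcript, so splice forms could not be compared. PMF, in which flat pre-granulosa cells enclose a resting oocyte, were isolated mechanically from the ovarian cortex of Holstein Friesian dairy cows and pooled. RNA was sequenced from 3 pools retrieved after 16 h of culture (T16) and from 3 pools retrieved after collection (T0), and the labels name no further treatment. By the study's methods the follicles collected at T0 had first recovered for a short time in medium with insulin, transferrin, selenium and FSH. The culture of the T16 pools is not described in the sources used here, nor whether the pools came from separate animals, so the spread between libraries may be partly technical.

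MMP are zinc enzymes that are made as inactive proenzymes and cut the proteins of the extracellular matrix once their propeptide is removed. MMP1 and MMP13 are collagenases, which open the triple helix of fibrillar collagen. MMP3, stromelysin 1, cuts a wide range of matrix proteins and also activates other proenzymes. MMP2 and MMP9 are gelatinases, which degrade denatured collagen and the collagen IV of basement membranes, and MMP14 is anchored in the cell membrane. TIMP bind active MMP one to one and block them. In the ovary these enzymes and inhibitors are best known for the remodelling of the follicle wall at ovulation and of the corpus luteum.

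Total estimated counts ran from 25761986 to 36703016 in the T16 libraries and from 22174653 to 30212698 in the T0 libraries, of which 89.1% to 90.3% fell on named genes. Levels are given as TPM, the share of a library's transcripts after correction for transcript length, so that genes can be compared. All 14 oocyte markers had counts in every library, and their TPM summed to 1767, 77.2 and 709 in T16 replicates 1, 2 and 3 and to 451, 1802 and 2616 in the T0 replicates. In T16 replicate 2 several were close to absent, with 1 count each of DPPA3 and OOSP2 and 8 counts of BMP15. KIT made up 39.5 TPM of the sum in that library. The libraries poorest in oocyte RNA, T16 replicate 2 and T0 replicate 1, had the highest granulosa marker sum of their group. In T0 replicate 1 that sum of 10100 TPM was mostly KRT8 (7671 TPM) and KRT18 (1277 TPM), while INHA and WNT6 were lower there (291 and 39.0 TPM) than in T0 replicates 2 (996 and 155 TPM) and 3 (600 and 74.6 TPM). In pools of whole follicles, fewer cells of a type and less RNA per cell cannot be told apart.

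After 16 h of culture, MMP1 and MMP3 were abundant in all pools, whereas at T0 they were close to absent. MMP1 had 197, 133 and 45.8 TPM in T16 replicates 1, 2 and 3, against 0, 0.117 and 0 TPM in T0 replicates 1, 2 and 3. MMP3 had 109, 111 and 85.6 TPM in the T16 libraries and 0, 0.0616 and 0 TPM in the T0 libraries, in the same order. For both genes every T16 library lay above every T0 library, and the T0 signal came from replicate 2 alone. That signal was 4 counts of MMP1 and 2 counts of MMP3, and the 0 counts of the other 2 T0 libraries allow up to 0.122 CPM (counts scaled to the library total) in replicate 1 and 0.151 CPM in replicate 3.

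Set against the 4 counts over all T0 libraries, even the lowest T16 library, replicate 3 with 2140 counts of MMP1, had 1150 times the CPM (95% counting interval, exact, 450 to 4240). For MMP3 the ratio of single T16 libraries to T0 lay between 3770 and 4140, with intervals that reached from 1040 to 34200. These intervals cover counting error only. The log2 fold change of T16 over T0 fitted by edgeR was 11.54 (SE 1.12) for MMP1 and 11.96 (SE 0.83) for MMP3, values that rest on those few T0 counts. Without T0 replicate 2, which held all of them, the fitted values were 14.93 and 14.49, which then depend on the prior count of the fit. Both genes passed the filter on low counts through the T16 libraries only.

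Although both genes appeared together, they did not keep a fixed proportion. The ratio of MMP1 to MMP3 in TPM was 1.81 in T16 replicate 1, 1.20 in replicate 2 and 0.535 in replicate 3. MMP3 varied little between the cultured pools, with a mean of 102 TPM (SD 14.1, n = 3), and MMP1 varied more, with a mean of 125 TPM (SD 76.0, n = 3).

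**Figure D1:**
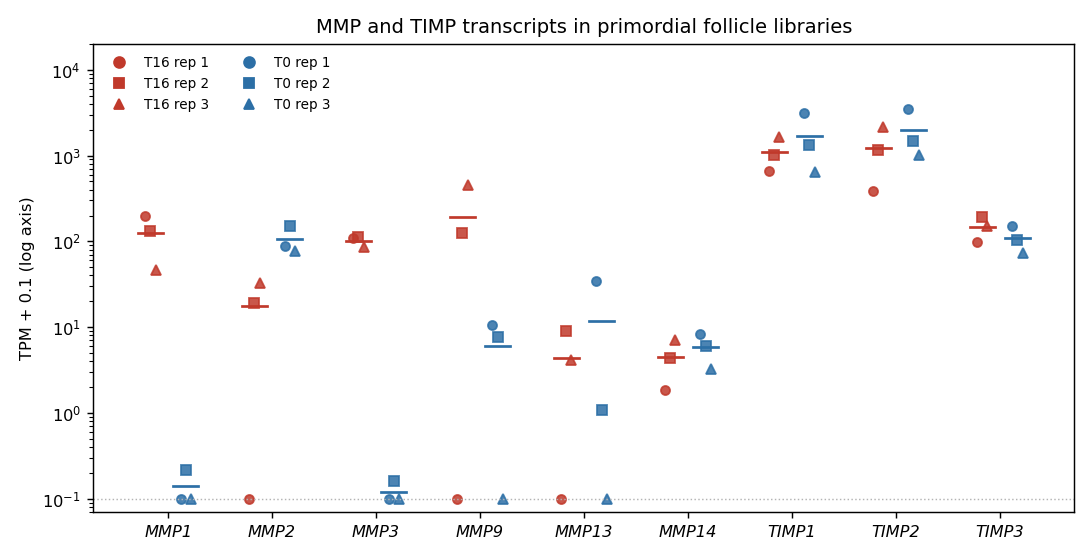
TPM of the 9 genes in single libraries, with 0.1 added and drawn on a log axis; red symbols are T16 and blue symbols T0, the symbol shape gives the replicate, and short lines are group means. MMP1 and MMP3 lie near 100 TPM at T16 and on or near the dotted line of 0 TPM at T0, while the 3 TIMP genes overlap between the groups.

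The 2 gelatinases differed from each other. MMP2 was present in all T0 libraries and lower in every T16 library, whereas MMP9 was high in only some of the cultured pools. MMP2 had 0, 19.1 and 32.9 TPM in T16 replicates 1, 2 and 3, against 87.4, 153 and 77.5 TPM in T0 replicates 1, 2 and 3. The groups did not overlap, and the log2 fold change was -2.38 (SE 1.56). In T16 replicate 1 no read of MMP2 was counted, which allows up to 0.116 CPM.

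MMP9 had 0, 123 and 450 TPM in the T16 libraries and 10.4, 7.62 and 0 TPM in the T0 libraries, in replicate order. It was the most abundant MMP transcript of T16 replicate 3, with 24591 counts, yet T16 replicate 1 had none. The groups therefore overlapped, and the log2 fold change of 5.18 (SE 2.62) was 3.31 without T16 replicate 3. MMP9 is made in quantity by neutrophils and macrophages. The summed leukocyte markers were at 59.5, 4.08 and 14.7 TPM in T16 replicates 1, 2 and 3 and at 9.66, 45.2 and 52.1 TPM in the T0 replicates, with ITGB2 and CD2 at 0 in every library. CSF1R alone made up 37.8, 0.0736 and 6.89 TPM of these sums at T16 and 8.31, 40.3 and 42.4 TPM at T0. The macrophage marker CD68 had 14.2, 1.00 and 5.51 TPM at T16 and 0, 0 and 0.838 TPM at T0, every T16 library above every T0 library, and the neutrophil gene S100A12 had 1.36 TPM in T16 replicate 3 alone. Of the 4 tested leukocyte markers, CD68 and PTPRC had log2 fold changes above 0 (4.78 and 0.65) and CSF1R and LYZ below 0 (-0.91 and -0.21). By edgeR 0 of them passed (adjusted p = 0.356 for CD68), and CD14 and AIF1 were at 0 in every T16 library. The part of neutrophils and macrophages in the MMP9 level was not tested.

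Of the remaining enzymes, the collagenase MMP13 was uneven at both times and MMP14 was low throughout. MMP13 had 0, 8.82 and 4.07 TPM in T16 replicates 1, 2 and 3, against 34.5, 0.976 and 0 TPM in the T0 replicates. Its T0 mean of 11.8 TPM (SD 19.6, n = 3) came almost entirely from replicate 1. The log2 fold change of -1.51 (SE 2.32) turned to 3.33 without that library and to 2.90 with the replicate number as a block. MMP14, whose product activates pro-MMP2 at the cell surface together with TIMP2, had 1.74, 4.25 and 7.0 TPM in the T16 libraries and 8.26, 5.87 and 3.19 TPM in the T0 libraries. The log2 fold change was -0.27 (SE 0.85), and it turned to 0.21 without T0 replicate 1 and to 0.09 without T16 replicate 1. In every library TIMP2 exceeded MMP14 by at least 222 to 1, and the ratio was 222 to 305 at T16 and 255 to 419 at T0.

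The inhibitors were abundant before and after culture, and the groups overlapped for all 3. TIMP1 had 668, 1002 and 1643 TPM in T16 replicates 1, 2 and 3, against 3102, 1340 and 636 TPM in T0 replicates 1, 2 and 3. TIMP2 had 386, 1173 and 2135 TPM in the T16 libraries and 3464, 1496 and 1014 TPM in the T0 libraries. Both genes were highest of all libraries in T0 replicate 1 and were lowest of their own group in T16 replicate 1 and T0 replicate 3.

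The log2 fold change was -0.53 (SE 0.72) for TIMP1 and -0.57 (SE 0.80) for TIMP2, and without T0 replicate 1 the values turned to 0.42 and 0.27. TIMP3, which unlike TIMP1 and TIMP2 binds to the matrix, had the smallest SE of the 9 genes. It had 99.3, 193 and 150 TPM at T16 and 150, 104 and 72.7 TPM at T0, a log2 fold change of 0.52 (SE 0.45) that stayed between 0.26 and 0.96 in 13 alternative fits. TIMP3 made up 3.82% to 8.61% of the TIMP transcripts at T16 and 2.24% to 4.22% at T0, and TIMP1 and TIMP2 the rest.

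By mean level, the order at T16 was TIMP2, TIMP1, MMP9, TIMP3, MMP1, MMP3, MMP2, MMP14 and MMP13. Neighbours in this order overlapped in their library ranges except at 2 steps, between TIMP1 and MMP9 and between MMP3 and MMP2. At T0 the order was TIMP2, TIMP1, TIMP3, MMP2, MMP13, MMP9, MMP14, MMP1 and MMP3. Here the ranges were apart between TIMP1 and TIMP3, between MMP2 and MMP13, and between MMP14 and MMP1.

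With MMP1 and MMP3 included, both the sum of the MMP transcripts and its make-up differed between the groups. MMP1 and MMP3, whose values led to the choice of the genes, are part of each sum and lower the shares of the other enzymes at T16. Without these genes the sums of the groups overlapped. Only the 1.74 TPM of MMP14 then remained in T16 replicate 1, while MMP9 alone had 450 TPM in T16 replicate 3. The 6 enzymes summed to 308, 399 and 625 TPM in T16 replicates 1, 2 and 3 and to 140.5, 167 and 80.7 TPM in the T0 replicates. MMP2 held 0%, 4.78% and 5.26% of that sum in the T16 libraries, against 62.2%, 91.2% and 96.1% in the T0 libraries. MMP1 and MMP3 together held nearly all of it in T16 replicate 1, with 64.0% and 35.4%. In T16 replicate 2 the shares of MMP1, MMP3 and MMP9 were close, at 33.3%, 27.7% and 30.9%. In T16 replicate 3, MMP9 alone held 72.0%. No 2 cultured pools thus had the same make-up, while MMP2 led in each of the 3 T0 pools.

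Relative to the inhibitors, MMP transcripts were scarce in every library, and with MMP1 and MMP3 in the sum less so after culture. For 100 TIMP transcripts there were 26.7, 16.9 and 15.9 MMP transcripts in T16 replicates 1, 2 and 3, against 2.09, 5.68 and 4.68 in the T0 replicates. The log2 ratio of the sums averaged -2.37 (SD 0.41, n = 3) at T16 and -4.71 (SD 0.76, n = 3) at T0, a difference of 2.34. The difference rests on MMP1 and MMP3, whose values led to the choice of the genes. Without these, there were 0.151, 6.57 and 12.6 MMP transcripts for 100 TIMP transcripts at T16 and 2.09, 5.68 and 4.68 at T0, so that the groups overlapped and the difference of the log2 ratio turned to -0.69. With every matched MMP gene and TIMP4 in the sums the difference was 1.48, since MMP23, which is abundant at both times, then enters.

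**Figure D2:**
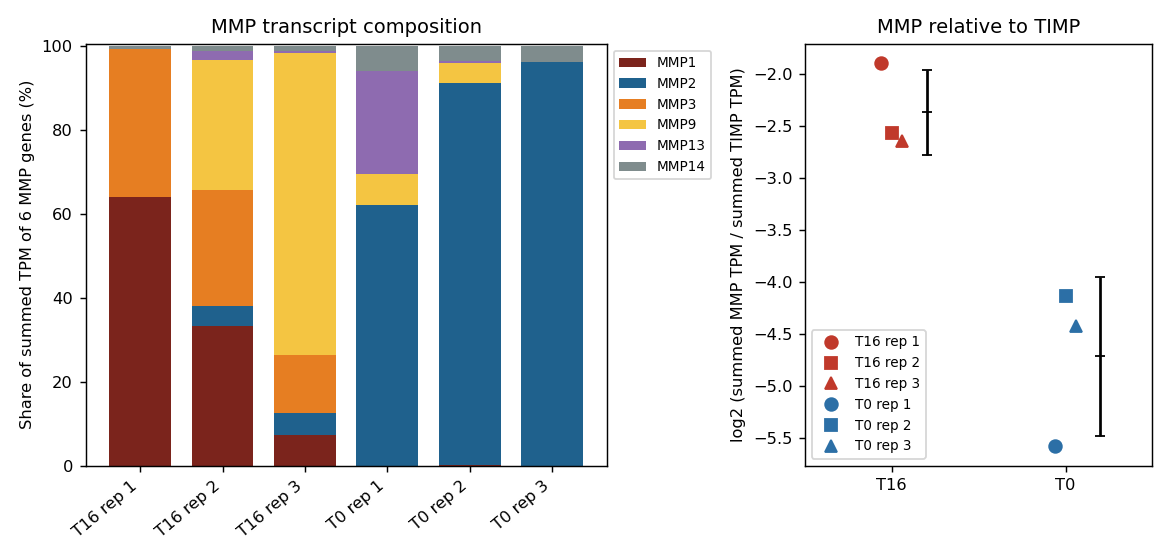
Left, the share in percent of each MMP gene in the summed TPM of the 6 MMP genes, 1 bar per library. Right, the log2 ratio of summed MMP to summed TIMP TPM in single libraries, with the mean and SD of each group in black; MMP2 holds 62.2% to 96.1% of the bars at T0, and the 3 T16 ratios, which include MMP1 and MMP3, lie above the 3 T0 ratios.

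The levels of several members varied with those of cell type markers. T16 replicate 1, which lacked MMP2, MMP9 and MMP13, was the library with the least stroma fibroblast, smooth muscle, endothelium and theca marker RNA, and with the least granulosa marker RNA too. The summed stroma fibroblast markers were at 281, 774 and 1758 TPM in T16 replicates 1, 2 and 3 and at 3011, 1350 and 1193 TPM in the T0 replicates. Of these 10 markers, COL1A2, COL3A1 and LUM had 2.43, 0.74 and 0.07 TPM in T16 replicate 1, TCF21 was at 0, and DCN and PDGFRA had 152 and 112 TPM. These DCN and PDGFRA levels lay between those of T16 replicates 2 and 3 (165 and 120.5 TPM for DCN, 160 and 79.2 TPM for PDGFRA). MMP1 was highest in T16 replicate 1 and MMP3 nearly as high as in replicate 2. The cells that made either transcript were not tested.

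The same library held 1767 TPM of oocyte markers, while T16 replicate 2 held 77.2 TPM, and MMP3 differed little between them. T0 replicate 1, the highest library for MMP13, MMP14, TIMP1 and TIMP2, had the highest summed stroma, smooth muscle, endothelium, theca and granulosa markers of all 6 libraries. Single genes carried several of these sums, such as CLDN5 with 382 of 393 TPM for endothelium, whereas MYH11 and INSL3 were lowest of the T0 libraries there (40.2 and 38.6 TPM). As groups, most marker lists, that of the oocyte among them, had a median log2 fold change below 0. Oocyte markers had a median of -0.67 (12 of 14 tested below 0), but T16 and T0 overlapped for all 14. At an unadjusted p under 0.05 by edgeR, 0 of these 14 were higher or lower. The median was -0.77 for ovarian surface epithelium (4 of 5, with overlap in 4) and -0.55 for theca and luteal markers (5 of 7, with overlap in 6). Endothelium markers had -0.32 (3 of 6) and leukocyte markers 0.22 (2 of 4). The median log2 fold change was -1.85 for smooth muscle and pericyte markers (7 of 8 tested below 0), -0.80 for stroma fibroblast markers (7 of 10) and -0.68 for granulosa markers (7 of 10), beside -0.085 for all genes, of which 53.4% were below 0. Every T16 library lay below every T0 library for ACTA2, MYH11, NOTCH3, POSTN, DCN, FOXL2, WNT6 and GATM, and edgeR called 0 of the markers in these 3 lists (6 lower and 1 higher at an unadjusted p under 0.05), while DESeq2 called WNT6, GATM and DCN lower and FST higher. The part of these cells in the levels of the 9 genes was not tested. From 5 to 9 of the 11 leukocyte markers were at 0 in any library.

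**Figure D3:**
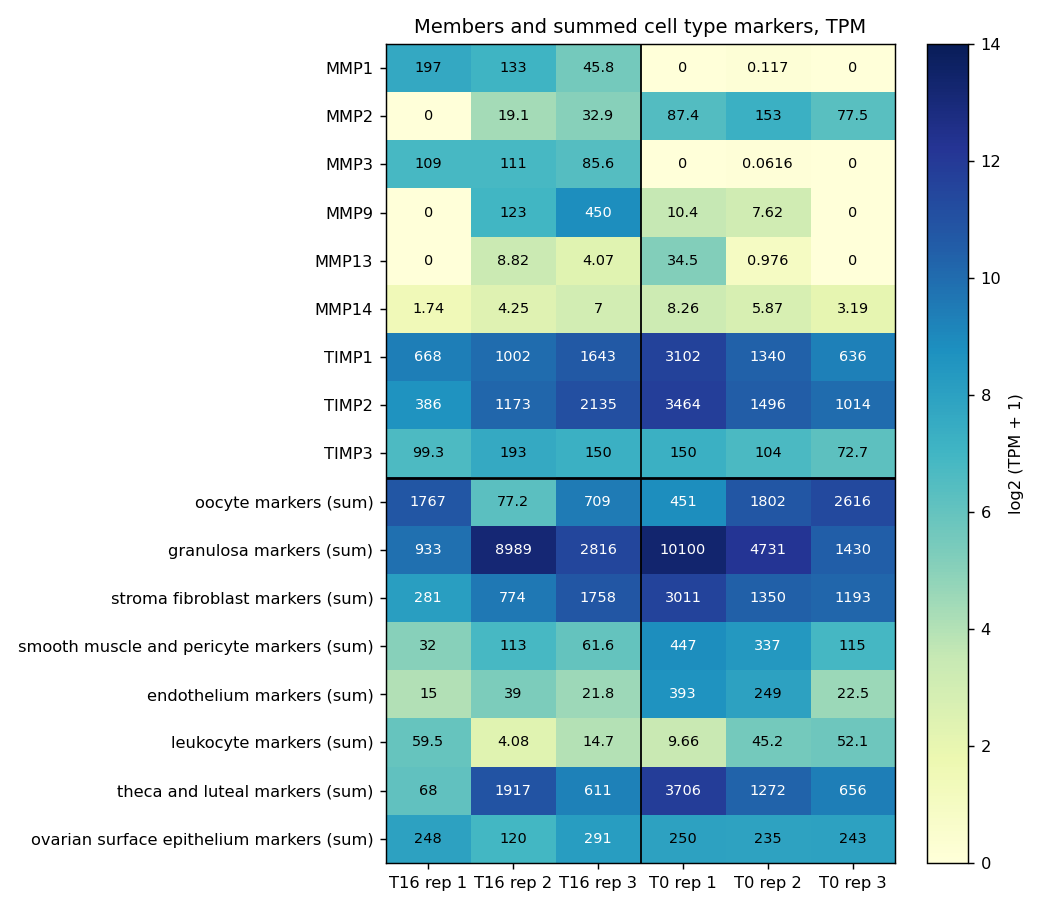
TPM of the 9 genes (upper block) and TPM summed over each list of cell type markers (lower block) in the 6 libraries, printed in the cells and coloured as log2(TPM + 1). T16 replicate 1 combines 197 TPM of MMP1 with 0 TPM of MMP2, MMP9 and MMP13 and only 281 TPM of stroma fibroblast markers.

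MMP1, MMP3 and MMP13 are neighbours in the genome, in a row of MMP genes that the RefSeq annotation orders as MMP13, MMP12, MMP3, MMP1, MMP8, MMP27, MMP20 and MMP7. In this row, signal after culture was not shared by all genes. MMP12, the macrophage elastase, stayed between 0.0345 and 0.0759 TPM at T16 and between 0.0310 and 0.0767 TPM at T0. MMP8, the neutrophil collagenase, and MMP27 were listed at 0 in all 6 libraries, and MMP20, which acts on enamel, was listed at 0 in all but T16 replicate 2.

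MMP7 (matrilysin), at the far end of the row, had 1.24, 4.99 and 12.2 TPM in T16 replicates 1, 2 and 3, against 0, 0 and 0.148 TPM in the T0 replicates. Every T16 library was above every T0 library, with 364 counts at T16 and 2 counts at T0, which is 159 times the CPM at T0 (95% counting interval 43.6 to 1310). The log2 fold change of 7.11 (SE 1.83) did not pass over all genes by edgeR (adjusted p = 0.147), while DESeq2 called it (adjusted p = 0.00226).

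Past a pseudogene next to MMP1 lies LOC112441463, a protein-coding gene without a name in the annotation, which was picked out after its values were seen. It had 57.8, 49.8 and 35.6 TPM in the T16 libraries and 0.904, 0 and 1.91 TPM in the T0 libraries. Its log2 fold change was 5.76 (SE 1.38; edgeR adjusted p = 0.134, DESeq2 adjusted p = 4.756e-05). Whether it shares reads with MMP1 could not be examined without its sequence. The genes flanking the row were expressed at both times, DCUN1D5 with a mean of 93.9 TPM (SD 27.3, n = 3) at T16 and 74.7 TPM (SD 30.3, n = 3) at T0, and TMEM123 with 42.1 TPM (SD 12.7, n = 3) at T16 and 68.6 TPM (SD 8.82, n = 3) at T0.

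**Figure D4:**
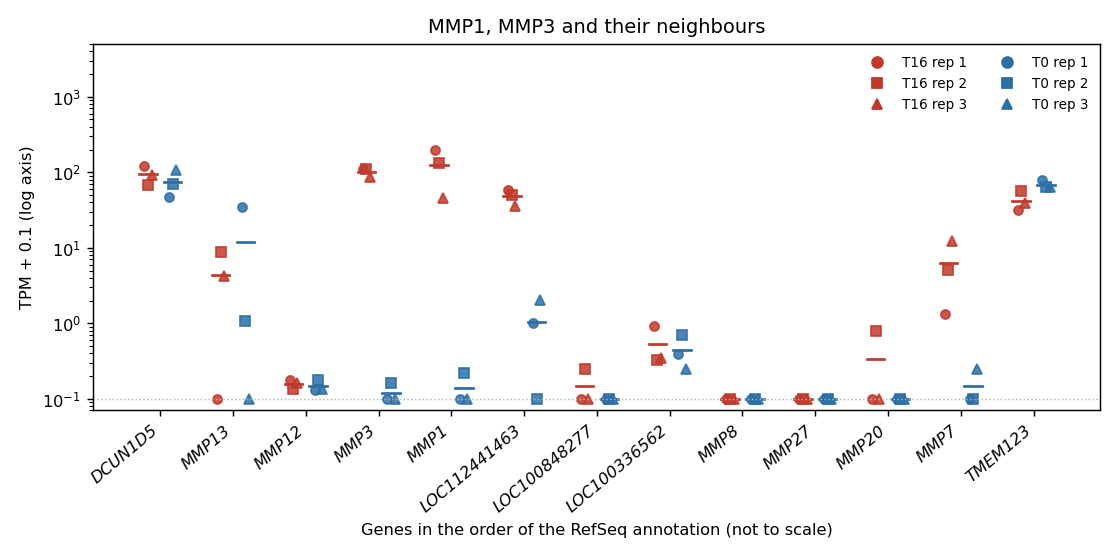
TPM, with 0.1 added and on a log axis, of the genes around MMP1 and MMP3 in the order of the RefSeq annotation (spacing not to scale); pseudogenes of the row are left out, symbols are single libraries and short lines are group means. MMP3, MMP1, LOC112441463 and MMP7 have every T16 library above every T0 library, and MMP12, MMP8 and MMP27 stay at or near 0.

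Across all genes, edgeR called 5 of 14639 genes higher at T16 (0.0342%) and 1 lower (0.00683%), 6 in all (0.041%), at a false discovery rate (FDR) below 0.05. DESeq2 called 4.17% of its 14232 genes higher and 3.04% lower. Of the 9 members, MMP1 and MMP3 were called higher by both tools and none was called lower. Since this comparison led to their choice, nothing is read from that count. Neither gene was called by edgeR without T0 replicate 2 or without T0 replicate 3, and MMP1 was not called without T0 replicate 1. Every T16 library lay above every T0 library in 13.2% of genes and below in 10.6%, and this held for 2 and 1 of the 9 members.

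Of the other MMP genes, MMP7 alone had every T16 library above every T0 library. Of 18 listed with TIMP4, 15 were matched and 10 could be tested, edgeR called 0 in either direction, DESeq2 called MMP7 higher, and at an unadjusted p under 0.05 by edgeR only MMP7 was higher. Over all genes, 8.61% were higher and 5.14% lower at that unadjusted p, and the counts of each list below are to be read against these shares. Their median log2 fold change was 0.01, beside -0.085 for all genes tested. MMP23 was the most abundant, with a mean of 60.5 TPM (SD 35.2, n = 3) at T16 and 134 TPM (SD 95.2, n = 3) at T0 (log2 fold change -1.07, edgeR adjusted p = 0.628). MMP16, a membrane-type enzyme, averaged 29.5 TPM (SD 30.4, n = 3) at T16 and 15.9 TPM (SD 14.7, n = 3) at T0.

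MMP11, MMP15, MMP17, MMP19, MMP24, MMP25 and MMP28 had log2 fold changes between -1.73 and 2.64, and the groups overlapped for each of them. TIMP4, a further inhibitor, had 0 counts in all T16 libraries and 8, 82 and 46 counts in T0 replicates 1, 2 and 3. With the counts of each group pooled, this was at least 52.0-fold lower at T16 against a floor of 3 counts over the group. That bound rests mainly on T0 replicates 2 and 3. TIMP4 fell under the count filter and was not tested.

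With these other MMP genes, 127 genes of 9 lists could be tested, which also cover further proteases, inhibitors, activators, inducers and matrix substrates. One of them, CAV1, was called higher at T16 by edgeR and none lower, against 0.0342% and 0.00683% of all genes. DESeq2 called 13 higher and 9 lower, against 4.17% and 3.04% of all its genes. Every T16 library lay above every T0 library in 20 of the 127 and below in 18, against 13.2% and 10.6% of all genes. The lists were chosen with earlier results of these data known, so nothing is read from these counts. CAV1, the main protein of caveolae, in which MMP14 can reside, had 927, 365 and 477 TPM in T16 replicates 1, 2 and 3, against 10.2, 11.4 and 7.78 TPM in the T0 replicates. Its log2 fold change was 5.99 (SE 0.53, edgeR adjusted p = 0.0319). It did not pass with the replicate number as a block, nor with any library other than T16 replicate 1 left out. Among the other 12 tested surface partners and activators, DESeq2 also called CD44, a receptor for hyaluronan that docks MMP9, with 16.9, 11.4 and 28.3 TPM at T16 and 3.41, 2.96 and 0.61 TPM at T0. CD44 is named after its values were seen. CD63, BSG (basigin) and ITGAV, the most abundant of that list, had log2 fold changes of -0.12, 0.00 and -1.33 and overlapped between groups.

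Among inhibitors outside the TIMP family the most abundant was TFPI2. This gene, a secreted inhibitor of serine proteases such as plasmin, had 946, 438 and 853 TPM in T16 replicates 1, 2 and 3, against 1.44, 5.47 and 48.2 TPM in the T0 replicates. Every T16 library was above every T0 library, and the log2 fold change was 5.58 (SE 1.28; edgeR adjusted p = 0.128, DESeq2 adjusted p = 8e-06). THBS1, which can bind MMP2 and MMP9, averaged 45.0 TPM (SD 6.49, n = 3) at T16 and 12.9 TPM (SD 4.80, n = 3) at T0 (log2 fold change 1.88, edgeR adjusted p = 0.123). SPOCK1, a testican, had a log2 fold change of -0.19 and overlapped between groups. RECK, a membrane-bound MMP inhibitor named after its values were seen, was low, at 3.22, 6.67 and 0.45 TPM in the T16 libraries and 6.85, 8.49 and 8.64 TPM in the T0 libraries. By edgeR 0 of the 8 tested genes of this list passed (at an unadjusted p under 0.05, 2 higher and 2 lower), and by DESeq2 TFPI2 and THBS1 were higher and SPOCK2 was lower.

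The plasminogen system, through which plasmin activates several proenzymes, was expressed without a called change. Of 12 tested genes 0 passed by edgeR or DESeq2, and at an unadjusted p under 0.05 there was 1 higher and 0 lower. Its most abundant genes were ENO1, S100A10 and ANXA2, which serve as plasminogen receptors or their parts. They averaged 1598, 1586 and 955 TPM at T16 and 1258, 909 and 970.5 TPM at T0, and the groups overlapped for all 3. PLG, plasminogen itself, was listed at 0 in all libraries. Of the 21 tested ADAM and ADAMTS genes 0 passed by edgeR (1 higher and 1 lower at an unadjusted p under 0.05). DESeq2 called ADAMTS5 higher and ADAMTS3 lower, both named after their values were seen. ADAMTS5, an aggrecanase, had 12.4, 10.97 and 5.14 TPM in T16 replicates 1, 2 and 3, against 0.505, 0.574 and 0.556 TPM in the T0 replicates (log2 fold change 4.2, SE 0.64, edgeR adjusted p = 0.0872). ADAMTS1, a protease required for ovulation in mice, was the most abundant, with a mean of 226 TPM (SD 30.8, n = 3) at T16 and 152 TPM (SD 136, n = 3) at T0, and ADAM10 and ADAMTS14 had log2 fold changes of 0.28 and -1.05 with overlapping groups.

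Transcription of MMP1, MMP3, MMP9 and MMP13 is known to be induced through AP-1, ETS and NF-kB factors and by cytokines. By edgeR 0 of 19 tested factors passed, although at an unadjusted p under 0.05 there were 7 higher and 5 lower, and DESeq2 called 5 higher and 2 lower. The 2 lower were the AP-1 subunits FOS and JUN. FOS had 74.1, 109 and 49.1 TPM in the T16 libraries, against 742, 1657 and 3859 TPM in the T0 libraries (edgeR adjusted p = 0.0872), and JUN averaged 158 TPM (SD 56.6, n = 3) at T16 and 800.0 TPM (SD 363, n = 3) at T0 (edgeR adjusted p = 0.107). JUNB had 325, 214 and 184 TPM at T16 and 320.5, 514 and 1494 TPM at T0. The AP-1 subunit FOSL1 and the factor ETS1, both among the 5 called higher by DESeq2 and named after their values were seen, had more RNA at T16. FOSL1 had 432, 211 and 224 TPM at T16 and 11.3, 5.58 and 62.6 TPM at T0 (edgeR adjusted p = 0.142). ETS1 had 115, 50.4 and 57.2 TPM at T16 and 6.73, 2.54 and 4.40 TPM at T0 (edgeR adjusted p = 0.0838). The other 3 were NFKB1, NFKB2 and RELB.

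Of 11 tested cytokines and growth factors 0 passed by edgeR, and 4 were higher and 0 lower at an unadjusted p under 0.05. Their median log2 fold change was 0.97 (10 of 11 above 0), beside -0.085 for all genes. Every T16 library lay above every T0 library for 5 of 11, against 13.2% of all genes. TNF was listed at 0 in all libraries, and IL1B stayed between 0.52 and 1.11 TPM at T16 and between 0.64 and 1.08 TPM at T0. IL1A, named after its values were seen, had 4.32, 1.81 and 1.70 TPM at T16 and 0.948, 0.889 and 0.795 TPM at T0 (edgeR adjusted p = 0.469). CXCL8 averaged 97.5 TPM (SD 28.9, n = 3) at T16 and 2.08 TPM (SD 3.61, n = 3) at T0, where it was counted in replicate 3 only (log2 fold change 5.77, edgeR adjusted p = 0.248). HBEGF and PDGFA had log2 fold changes of 0.35 and 0.97. DESeq2 called EREG, an EGF receptor ligand named after its values were seen, with 10.1, 3.16 and 3.76 TPM at T16 and 0.019, 0.0157 and 0 TPM at T0.

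Among the matrix proteins that MMP degrade, 21 of 27 tested genes had a log2 fold change below 0, with a median of -1.14 beside -0.085 for all genes, of which 53.4% were below 0. Smooth muscle, stroma, granulosa and oocyte markers had negative medians too (-1.85, -0.80, -0.68 and -0.67), and the part of these cells in the levels was not tested. edgeR called 0 of them (at an unadjusted p under 0.05, 1 higher and 6 lower), and DESeq2 called 1 higher and 4 lower. The lower ones were NID1, COL4A3, ELN and DCN. DCN, decorin, which coats collagen fibrils, had 152, 165 and 120.5 TPM in T16 replicates 1, 2 and 3, against 199, 489 and 461 TPM in the T0 replicates (log2 fold change -1.27, edgeR adjusted p = 0.179). SPARC and COL1A2, the most abundant substrates, had 71.6 and 2.43 TPM in T16 replicate 1, far below every other library, and log2 fold changes of -0.71 and -1.24. Of the 6 tested genes for intracellular collagen breakdown 0 passed by edgeR (0 higher and 1 lower at an unadjusted p under 0.05). DESeq2 called CST3, cystatin C, an inhibitor of cathepsins, with a mean of 462 TPM (SD 104, n = 3) at T16 and 1493 TPM (SD 592, n = 3) at T0. CTSD and CTSK overlapped between the groups.

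**Figure D5:**
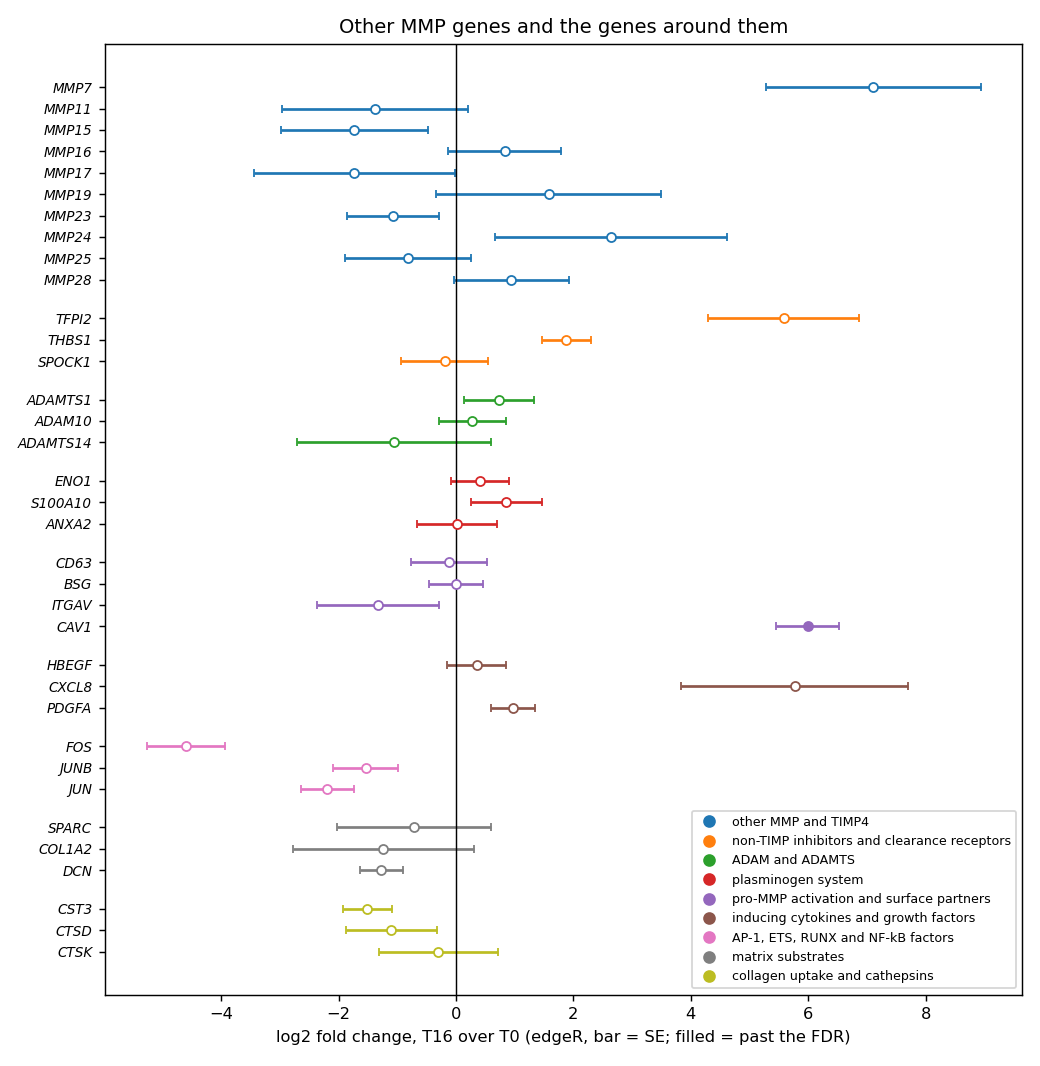
log2 fold change of T16 over T0 by edgeR with its SE (bars) for the tested MMP genes outside the 9 members and for the 3 most abundant genes, and any called gene, of each further list. The filled symbol is CAV1, the only 1 of these genes past the FDR, and MMP7, TFPI2 and CXCL8 lie above 5 with wide errors.

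The genes whose levels followed those of MMP1 and MMP3 most closely were sought over the 6 libraries, by the correlation of log2(CPM + 1) with the mean of both genes. Among the closest were LOC101907642, ADAMTS5, ESM1 and AJAP1, with Pearson's r from 0.9941 to 0.9977, but 231 genes had an r above 0.95. LOC101907642 stayed below 1 TPM in all libraries. With 3 libraries low and 3 high, such values mainly restate the split between the groups. ESM1, a secreted proteoglycan of endothelium, had 62.4, 86.7 and 31.3 TPM in T16 replicates 1, 2 and 3, against 0.384, 0.422 and 0 TPM in the T0 replicates. AJAP1, a protein of adherens junctions, had 188, 120.2 and 70.7 TPM in the T16 libraries and 0, 1.62 and 0.689 TPM in the T0 libraries, and like MMP1 it was highest in T16 replicate 1 and lowest of the cultured pools in T16 replicate 3.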

How the data were processed

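RNA of pooled PMF was extracted, amplified with SMART-Seq v4 and sequenced in 3 T16 and 3 T0 libraries. Per the paper's methods and the labels, reads were cleaned by the authors (Trim Galore, fastp) and quantified by Salmon against RefSeq transcripts of ARS-UCD1.3. The deposited files give estimated counts and TPM per RefSeq transcript; transcript lengths were used only in 1 alternative. Both were summed to genes here through a RefSeq table of ARS-UCD2.0, matched by accession without version, and estimated counts were rounded. Of 76123 transcripts 50205 matched (66.0%), and unmatched ones, 9.7% to 10.9% of counts, were left out.

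The T16 and T0 libraries were set against each other in edgeR 4.0.16 (under R 4.3.3) by the quasi-likelihood test after TMM scaling. A gene entered with 10 or more counts in 3 or more libraries, with Benjamini-Hochberg adjustment over all of them, at an FDR below 0.05. DESeq2 1.42.0, another filter, other scaling, length offsets, a replicate block and each library left out were alternatives. The code was also run on simulated counts with known changes, a check of the code that carries no result on these genes. The members and gene lists were chosen with earlier results of these data known. Named genes are all MMP and TIMP genes, and in each further list those past the FDR and the 3 with the highest mean TPM. For MMP1 and MMP3, the closest genes by correlation were named too. All other genes named, such as those called by DESeq2 alone, RECK, PLG, TNF, IL1A and IL1B, were picked after their values were seen. No sequences were at hand, so promoter motifs were not examined and no sequence is shown. Some genes are not reported here.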

Additional observations from a re-analysis of the deposited data

How the results depend on the processing

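The fold changes of MMP1, MMP3, MMP2, MMP9 and TIMP3 kept their direction in every alternative that could be fitted (9 for MMP1 and for MMP3, 13, 12 and 13 for the others), while MMP13, MMP14, TIMP1 and TIMP2 each turned in 2 or 3 alternatives, among them in each case the one without T0 replicate 1. MMP1 and MMP3 missed the count filter without any 1 T16 library and could not be fitted there. Over all genes, edgeR called 5 higher and 1 lower. DESeq2 called 594 and 433. Without the count filter 7 and 4 were called, and with a minimum of 50 counts 6 and 2. With 1 library left out, 0 to 2 genes were called higher (2 without T16 replicate 1 or T0 replicate 1, otherwise 0) and 0 to 1 lower (1 without T0 replicate 1, otherwise 0; 1038 to 2379 at an unadjusted p under 0.05). Without T16 replicate 2 and T0 replicate 1, an alternative chosen after seeing the data, 0 were called in either direction (2263 at an unadjusted p under 0.05). The cause of these shifts was not tested.

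The replicate number as a block left 0 genes called higher and 0 lower (1385 at an unadjusted p under 0.05). Same-numbered T16 and T0 libraries share a number in the labels, and whether they also share animals is not known. Their deviations from the group means correlated at -0.54, -0.133 and -0.052, which cannot decide it with so few libraries per group. The log2 ratio of MMP to TIMP differed by 2.34 between T16 and T0, by 2.00 without T16 replicate 2 and T0 replicate 1, by 1.9 to 2.62 with 1 library left out, by 2.17 with sums of CPM, and by 1.48 with every matched MMP and TIMP gene. It turned to -0.69 without MMP1 and MMP3, an alternative chosen after seeing the data; these genes carry the positive difference. Depth was not the limit for the abundant members; it limits MMP1 and MMP3 at T0, where 4 and 2 counts set the folds.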
